A study of Mus musculus with 6 samples.

Results

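Collagens VI, VIII and X are among the collagens that form filaments and networks around cells rather than banded fibrils. The 7 genes described here are Col6a1, Col6a2, Col6a3, Col6a6, Col8a1, Col8a2 and Col10a1. They were taken by symbol from the 44788 gene symbols of a bulk RNA-seq count table of mouse tail tendon. The rule that chose them uses symbols and no measured value, although it was written with earlier results of these data known, and all 7 passed the filter on low counts that left 14550 genes for testing. The libraries came from tail tendons of 3-week-old C57BL/6 mice according to the sample labels, whereas the study's text gives another age. There were 3 libraries of wild-type (WT) mice and 3 of Mkx-/- mice, which lack a working Mohawk homeobox gene, a transcription factor of tendon cells, in every cell of the body rather than in tendon alone. The labels list no treatment. The labels do not tie the 3 libraries of a group to separate mice, so the p-values measure the spread between these libraries. The study sequenced these tendons to find genes that accompany the bone-like tissue that forms in tendons without Mkx.

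Collagen VI is built from the products of Col6a1, Col6a2 and Col6a3, one of each per molecule, and is deposited as beaded filaments in the pericellular matrix, the thin coat that links a cell to the collagen fibrils around it. In tendon this coat surrounds the tenocytes, and inherited loss of collagen VI causes myopathies with joint contractures. Col6a6 codes for a related chain that can take the place of the Col6a3 product. Col8a1 and Col8a2 code for the short chains of collagen VIII, a network collagen of vessel walls and of the basement membrane of the cornea. Col10a1 codes for collagen X, a short-chain network collagen laid down by hypertrophic chondrocytes before cartilage turns to bone.

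The library totals ran from 10835070 to 14160301 counts. Collagen I and osteonectin dominated the libraries, and Col1a1, Col1a2 and Sparc together took 42.0% to 48.5% of all counts in WT and 28.3% to 34.8% in Mkx-/-. Mkx itself fell from 138 ± 4.92 to 45.7 ± 9.68 CPM (read counts per gene scaled to a common library size, SD, n = 3 per group), with an edgeR adjusted p of 0.00183, and reads of the gene remained in every Mkx-/- library. The 7 tenocyte markers were present in every library and summed to 377136 to 520683 CPM in WT and 240626 to 335273 CPM in Mkx-/-. Col1a1 and Col1a2 made up most of these sums. In edgeR, 1 of the 7 markers, Thbs4, was higher in Mkx-/- (log2 fold change 1.26, adjusted p 0.0118). Of the others, 0 were lower at an edgeR adjusted p under 0.05 and 6 did not pass the test. Tnmd was at -0.02 and Fmod at 0.11, while Scx was at -1.14, Col1a2 at -1.02, Col1a1 at -0.68 and Kera at -0.42. In DESeq2, a second test, 1 of the 7 was higher and 3 were lower at an adjusted p under 0.05. DESeq2 called 5.41% of all genes tested higher and 4.04% lower. Schwann cell genes, a list of 6, summed to 7556 to 10022 CPM in WT and 11809 to 22022 CPM in Mkx-/-, and a list of 28 skeletal muscle genes summed to 119 to 517 CPM in WT and 713 to 3614 CPM in Mkx-/-. A list of 12 endothelial genes summed to 75.6 to 93 CPM in WT and 135 to 188 CPM in Mkx-/-. Of the 12, Erg and Ecscr were higher at an edgeR adjusted p under 0.05 and 10 did not pass. Erg went from 8.3 to 36 CPM and Ecscr from 9.23 to 24.9 CPM on average. Tek was at a log2 fold change of 0.02, and Emcn and Esam were negative, at -0.26 and -0.32. Among all genes tested, 3.18% were higher at this threshold. WT replicate 1 stood apart from the other WT libraries, with a chi-square per degree of freedom of 38.3 and 40.1 against them, compared with 8.22 between WT replicates 2 and 3. WT replicate 3 was the only library with counts of the Y-linked gene Ddx3y, and the sex of the mice is not given in the labels. Xist, an X-linked gene, had 1 count in WT replicate 3 and 1289 to 1866 counts in each other library. By these genes WT replicate 3 was male and the other libraries female, so sex was not balanced between the groups. All CPM values were scaled by edgeR's TMM factors, which allow for differences in composition between libraries. In bulk tendon, fewer cells of one type and less RNA per cell cannot be told apart.

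The 7 genes lie on 5 chromosomes of the mm9 genome. Col6a1 (chr10:76171537-76188913) and Col6a2 (chr10:76058507-76086375) are both on the minus strand and are neighbours, 85.2 kb apart with no annotated gene between them. Col6a3 (chr1:92663435-92740529), Col6a6 (chr9:105591747-105730415) and Col8a1 (chr16:57624371-57754850) are also on the minus strand, and Col8a2 (chr4:125964037-125991574) and Col10a1 (chr10:34109787-34116891) are on the plus strand. Col10a1 shares 18 exonic bases with Nt5dc1, which is transcribed from the opposite strand, and the strand setting of the counting is not given in the sources used here. Nt5dc1 stood at 4.49 ± 0.278 CPM in the WT libraries and 4.08 ± 1.16 CPM in Mkx-/-. An RNA gene, AL606976.2, lies opposite Col8a2 and shares no exonic base with it.

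The windows of 250 bases before the annotated starts of the main collagen VI chains are printed here, 5′ to 3′ on the strand of each gene. They were read from the mm9 genome at chr10:76188914-76189163 for Col6a1, chr10:76086376-76086625 for Col6a2 and chr1:92740530-92740779 for Col6a3. Both strands were searched for the letters of 6 motifs, and capitals mark every match. They were TATAAA of the TATA box, GGGCGG bound by Sp1 factors and TGTGGT bound by Runx factors. The others were TGACTCA bound by AP-1, GGAATG bound by Tead factors and ACATGT bound by homeodomain proteins of the Iroquois type.
Col6a1: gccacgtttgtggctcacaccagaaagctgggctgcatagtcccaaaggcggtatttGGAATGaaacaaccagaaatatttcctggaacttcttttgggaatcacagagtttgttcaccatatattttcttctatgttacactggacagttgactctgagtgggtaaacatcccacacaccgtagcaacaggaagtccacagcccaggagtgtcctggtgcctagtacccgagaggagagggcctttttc
Col6a2: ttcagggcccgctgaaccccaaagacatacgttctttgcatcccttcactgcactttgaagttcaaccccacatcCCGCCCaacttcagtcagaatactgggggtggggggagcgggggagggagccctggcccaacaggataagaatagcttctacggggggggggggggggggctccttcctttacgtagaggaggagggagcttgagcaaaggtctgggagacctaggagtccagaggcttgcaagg
Col6a3: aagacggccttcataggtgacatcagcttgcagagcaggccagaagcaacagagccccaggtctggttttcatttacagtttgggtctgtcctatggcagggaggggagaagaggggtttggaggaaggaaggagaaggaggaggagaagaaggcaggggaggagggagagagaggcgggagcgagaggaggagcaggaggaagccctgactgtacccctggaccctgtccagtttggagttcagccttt

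The Col6a1 window held 1 Tead motif, 193 bases before the start, and the Col6a2 window 1 Sp1 motif, 175 bases before the start, while the Col6a3 window held none of the letters searched. Among the windows of 22380 protein-coding genes, 39.6% held the Sp1 motif, 12.8% the Runx motif, 12.3% the TATA box, 11.4% the Tead motif, 3.85% the AP-1 motif and 3.84% the Iroquois motif. The Col8a1 and Col8a2 windows held 4 Sp1 motifs each, some of them overlapping in Col8a2, and the Col6a6 window held 2. A Runx motif stood in the Col8a1 window and in no other of the 7. Col10a1 was the only one of the 7 with a TATA box, 32 bases before its start, and its window had the lowest GC content of the 7, 41.6% against a median of 54% over all windows. A match of letters describes the window and not a bound site.

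The main collagen VI chains were among the most abundant transcripts of these tendons, and none of the 7 genes passed the test between Mkx-/- and WT. Among all genes tested, 3.18% were higher in Mkx-/- and 2.26% lower at an edgeR adjusted p under 0.05, and 22.6% had an unadjusted p under 0.05 in either direction. Against that background, 0 of 7 members passed at the adjusted threshold in edgeR's quasi-likelihood test. DESeq2 called 5.41% of all genes higher and 4.04% lower at the adjusted threshold, and 0 of 7 members passed there. At an unadjusted p under 0.05 there was 1 member in edgeR, Col6a6, and there were 2 in DESeq2, Col6a6 and Col8a2. The share of all genes at that unadjusted threshold was not computed for DESeq2. Groups that did not overlap were found for 28.2% of all genes and for 0 of the 7 members. The median log2 fold change of the 7 members was -0.02, beside a median of 0.00 over all genes tested.

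**Figure D1:**
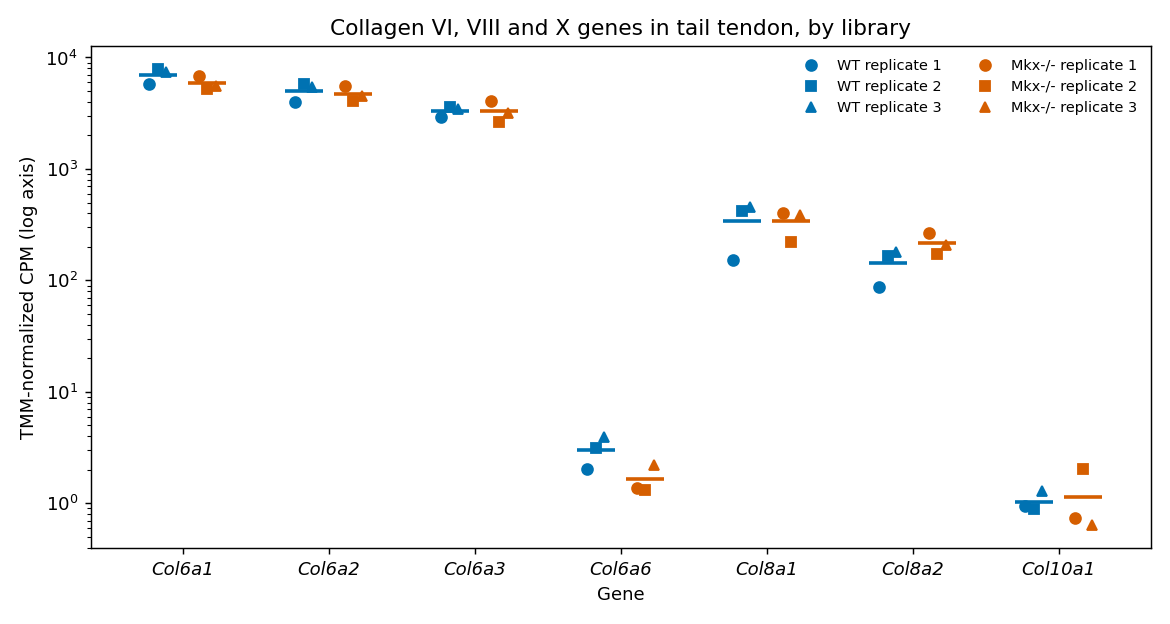
TMM-normalized CPM (log axis) of the 7 genes in each of the 3 WT (blue) and 3 Mkx-/- (orange) libraries, with a bar at each group mean. The 2 groups overlap for every gene, and the genes fall into an abundant set (the collagen VI chains Col6a1 to Col6a3), a middle set (collagen VIII) and a scarce set (Col6a6 and Col10a1).

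Per length of transcript, Col6a1 was the most abundant member and ranked behind only the collagen I genes among the collagen genes placed on this scale for WT. Levels were set on CPM per kilobase (kb) of the longest annotated coding transcript, which is a description with no test between genes. In WT, Col6a1 stood at 1713 ± 278, Col6a2 at 1086 ± 197 and Col6a3 at 378 ± 41.9 CPM per kb. Within each library the Col6a1 level per kb was 1.56 to 1.62 times that of Col6a2 in WT and 1.4 to 1.44 times in Mkx-/-. Col6a1 was 4.23 to 4.7 times Col6a3 in WT and 3.61 to 4.19 times in Mkx-/-. Thus the transcripts of chains that enter the molecule in equal numbers were not at equal levels per length in either group.

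Collagen VIII stood well below collagen VI on the same scale. Col8a1 reached 67.3 ± 32.4 and Col8a2 33.2 ± 11.6 CPM per kb in WT, against 66.2 ± 20 and 49.6 ± 10.8 in Mkx-/-. These WT levels of Col8a1 and Col8a2 did not differ beyond their spread, although Col8a1 was the higher of the pair within each of the 6 libraries. Col6a6 and Col10a1 were scarce, at 0.428 ± 0.133 and 0.331 ± 0.0682 CPM per kb in WT, and these neighbours in the order also lay within each other's spread. The fibril-forming collagens stood at 31254 ± 8260 CPM per kb for Col1a1, 829 ± 131 for Col3a1 and 88.3 ± 16.7 for Col5a1 in WT. Collagen VI therefore lay between collagen I and collagen V in WT tail tendon.

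**Figure D2:**
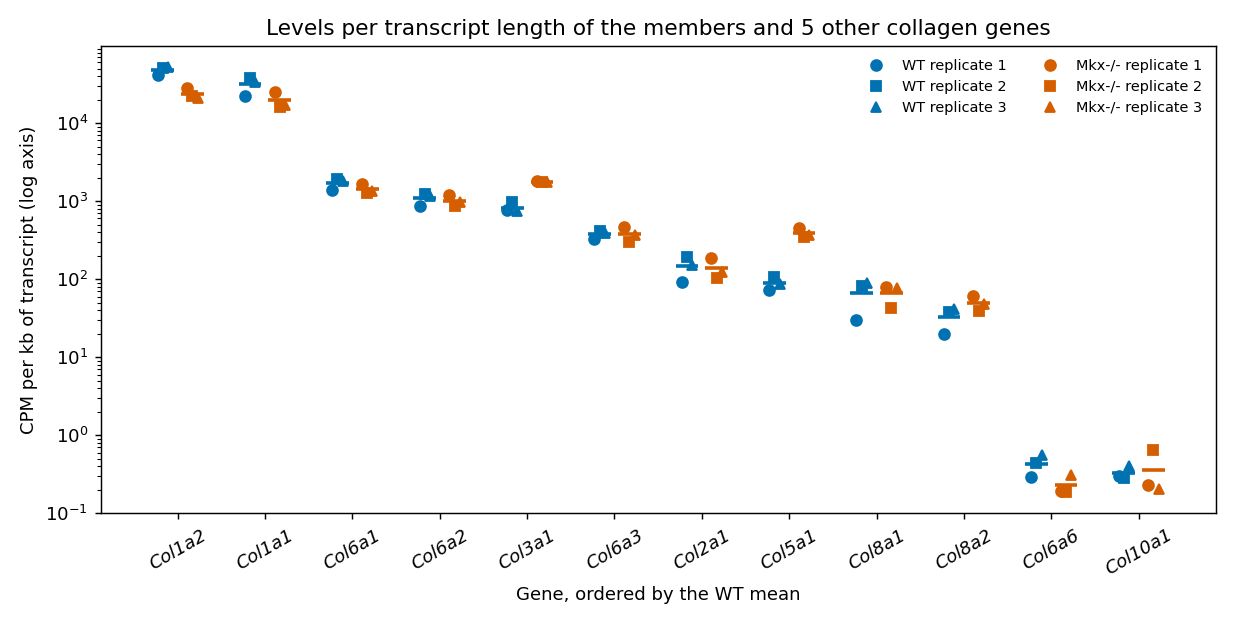
CPM per kb of the longest coding transcript (log axis) for the 7 members and 5 other collagen genes, ordered by the WT mean, with each WT (blue) and Mkx-/- (orange) library as a point and a bar at each group mean. In WT, Col6a1 stands at 1713 CPM per kb, below Col1a2 and Col1a1 and above Col3a1.

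Col6a1 had the highest raw level of the members and ranked 9 among all genes tested by mean CPM. The WT libraries held 5744, 7923 and 7409 CPM and the Mkx-/- libraries 6841, 5169 and 5574 CPM. The lowest value was Mkx-/- replicate 2, but Mkx-/- replicate 1 lay between the WT libraries. The means were 7025 ± 1139 CPM in WT and 5861 ± 872 CPM in Mkx-/-, a log2 fold change of -0.26 ± 0.20 (SE) with a 95% interval of -0.73 to 0.21 and an edgeR adjusted p of 0.499. The difference was within the spread between libraries, and the interval did not reach a 2-fold change in either direction.

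Col6a2, whose product pairs with that of Col6a1 in the same molecule, ranked 10. Its levels were 4012, 5745 and 5403 CPM in WT and 5538, 4066 and 4481 CPM in Mkx-/-. WT replicate 1 and Mkx-/- replicate 2 were the low libraries, and the groups overlapped throughout. The log2 fold change was -0.11 ± 0.21, with a 95% interval of -0.58 to 0.37 and an edgeR adjusted p of 0.813.

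Col6a3 codes for the largest of the main chains and ranked 16. It stood at 2899, 3603 and 3431 CPM in the WT libraries and 4049, 2636 and 3208 CPM in Mkx-/-. Mkx-/- replicates 1 and 2 were the highest and the lowest of all 6 libraries, so the knockout range enclosed the WT range. The means, 3311 ± 367 and 3298 ± 711 CPM, gave a log2 fold change of -0.01 ± 0.20, with a 95% interval of -0.47 to 0.46 and an edgeR adjusted p of 0.992. Together Col6a1, Col6a2 and Col6a3 took 1.27% to 1.49% of all counts in WT and 1.34% to 1.66% in Mkx-/-. Without WT replicate 1, the log2 fold changes of Col6a1, Col6a2 and Col6a3 were -0.39, -0.25 and -0.09, with edgeR adjusted p-values of 0.299, 0.515 and 0.841.

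Col6a6, the chain that can replace the Col6a3 product, had the lowest unadjusted p of the 7 in edgeR. In DESeq2 its unadjusted p was 0.0406, above the 0.0345 of Col8a2. The libraries held 26, 32 and 49 counts in WT and 15, 19 and 28 counts in Mkx-/-, or 2.05, 3.14 and 3.93 CPM against 1.37, 1.33 and 2.22 CPM. The highest knockout library lay just above the lowest WT library. The log2 fold change was -0.88 ± 0.35, with a 95% interval of -1.67 to -0.09, an edgeR p of 0.0332 and an adjusted p of 0.178. Without WT replicate 1 it was -1.11 ± 0.34, with an adjusted p of 0.0953. At this depth counting error is large, since the exact 95% Poisson interval of the 15 counts in Mkx-/- replicate 1 ran from 8.40 to 24.7 and that of the 26 counts in WT replicate 1 from 17 to 38.1, for counting error alone. Beside it, a list of 8 macrophage and leukocyte genes summed to 449 to 511 CPM in WT and 281 to 347 CPM in Mkx-/-, and 2 of the 7 tested were lower at an adjusted p under 0.05 in edgeR. At an unadjusted p under 0.05 in edgeR all 7 were lower, at an adjusted p under 0.05 in DESeq2 4 were lower, and their median log2 fold change was -0.63. Among all genes tested, 2.26% were lower at the adjusted and 10.1% at the unadjusted threshold in edgeR, and 4.04% at the adjusted threshold in DESeq2. The part of such cells in the Col6a6 values was not tested. The remaining chains of the family, Col6a4 and Col6a5, were close to the limit of detection, with 0 to 20 and 1 to 61 counts per library and edgeR adjusted p-values of 0.995 and 0.717.

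Col8a1 varied most between replicates of the abundant members. It stood at 154, 420 and 457 CPM in the WT libraries and 405, 221 and 389 CPM in Mkx-/-. WT replicate 1 was the lowest of all 6 libraries, and the coefficient of variation in WT was 48.1%. The log2 fold change was -0.02 ± 0.39, with an edgeR adjusted p of 0.984, and its 95% interval of -0.92 to 0.87 did not reach a 2-fold change in either direction. Without WT replicate 1 it was -0.38 ± 0.24, with an adjusted p of 0.396.

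Col8a2, the partner chain, had the largest positive estimate of the 7. Its levels were 86.5, 164 and 181 CPM in WT and 265, 172 and 208 CPM in Mkx-/-. WT replicate 1 was again the lowest, and Mkx-/- replicate 2 lay between WT replicates 2 and 3. The means of 144 ± 50.3 and 215 ± 46.9 CPM gave a log2 fold change of 0.58 ± 0.28, with a 95% interval of -0.05 to 1.21, an edgeR p of 0.0668 and an adjusted p of 0.259. Among all genes tested, 19.1% had a log2 fold change at least this far from 0. Without WT replicate 1 the value was 0.32 ± 0.19, with an adjusted p of 0.352 in edgeR. The mural and smooth muscle genes, which mark cells of the vessel wall, were tested as a list of 10, of which 9 passed the filter and 0 passed the test in edgeR, 4 had an unadjusted p under 0.05 in edgeR and 1 passed in DESeq2. Their summed level was 257 to 330 CPM in WT and 254 to 1075 CPM in Mkx-/-, and the high value came from Mkx-/- replicate 3, where Myh11 stood at 202 CPM against 1.97 to 2.75 CPM elsewhere. Col8a1 and Col8a2 were not at their highest in that library. The part of vessel-wall cells in the Col8a1 and Col8a2 values was not tested.

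Col10a1 was near the limit of detection in both groups. There were 12, 9 and 16 counts in WT and 8, 29 and 8 counts in Mkx-/-, or 0.945, 0.883 and 1.28 CPM against 0.733, 2.04 and 0.634 CPM. Mkx-/- replicate 2 was the high library, and the other knockout libraries were below every WT library. The exact 95% Poisson interval of its 29 counts ran from 19.4 to 41.6, and that of the 8 counts in each other knockout library from 3.45 to 15.8. These intervals are on raw counts and are not scaled for library size. Mkx-/- replicate 2 had 12631567 counts in total, against 10835070 and 11065090 in Mkx-/- replicates 1 and 3, so the intervals do not compare levels. The log2 fold change was 0.15 ± 0.50, with a 95% interval of -0.99 to 1.30 and an edgeR adjusted p of 0.895, and it was -0.60 without Mkx-/- replicate 2. The interval included a 2-fold rise, so a difference of that size was not excluded by these libraries.

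Genes of hypertrophic cartilage and endochondral bone, among which collagen X is a late marker, included some that were higher in Mkx-/-. Of 16 such genes 10 could be tested, 2 were higher in Mkx-/- and 0 lower in edgeR at the adjusted threshold, 5 were higher and 0 lower at an unadjusted p under 0.05, and DESeq2 gave 4 higher and 0 lower. Among all genes tested, 12.5% were higher and 10.1% lower at an unadjusted p under 0.05 in edgeR, and DESeq2 called 5.41% higher and 4.04% lower. The median log2 fold change of the 10 genes tested was 0.60, and 7 of them had a positive estimate. The negative estimates were those of Mmp13 (-0.36), Col11a1 (-0.26) and Col2a1 (-0.08), with edgeR adjusted p-values of 0.756, 0.544 and 0.905. Acan, the large proteoglycan of cartilage, was at 21.3, 34.5 and 40.3 CPM in the WT libraries and 172, 109 and 160 CPM in Mkx-/-, a log2 fold change of 2.20 ± 0.26 with an edgeR adjusted p of 0.0038. Spp1, which codes for osteopontin, rose by 1.07 ± 0.25 with an adjusted p of 0.0489. Alpl, Runx2 and Sox9, an enzyme of mineralization and transcription factors of bone and cartilage, had estimates of 1.58, 1.49 and 1.01 with edgeR adjusted p-values of 0.0722, 0.0734 and 0.0891. Col2a1, the fibrillar collagen of cartilage, was at 748 ± 261 and 705 ± 220 CPM. The Col10a1 count was 0.886 to 1.99 per 1000 Col2a1 counts in WT and 0.768 to 3.79 in Mkx-/-. Ihh and Sp7, regulators of hypertrophic chondrocytes and of osteoblasts, had at most 7 and 6 counts in any library and did not pass the filter.

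The collagen VI and VIII genes were compared with the other collagen genes of the table on the same scale. Of 37 such genes 33 were tested, with a median log2 fold change of 0.43. At an edgeR adjusted p under 0.05, 6 were higher in Mkx-/- and 5 lower, beside 3.18% and 2.26% of all genes tested. Those higher were Col5a1 (2.16 ± 0.20, edgeR adjusted p 0.00141), Col18a1 (1.86 ± 0.23), Col5a2 (1.25 ± 0.16), Col4a2 (1.1 ± 0.16), Col4a1 and Col3a1, which belong to collagen V and III of fibrils and collagen IV and XVIII of basement membranes. Col11a2, a chain of the minor fibrillar collagen XI, was the lower gene with the smallest p, at -1.72 ± 0.26 (adjusted p 0.0107). The other lower genes, named after their values were seen, were Col4a3 (-1.66), Col4a4 (-1.09), Col4a5 (-0.85) and Col15a1 (-0.82), with edgeR adjusted p-values of 0.0226 to 0.0417. Genes of basement membrane collagens were thus found in both directions. At an unadjusted p under 0.05 in edgeR, 14 of the 33 were higher and 6 lower, beside 12.5% and 10.1% of all genes tested. At an adjusted p under 0.05 in DESeq2, 8 were higher and 7 lower, beside 5.41% and 4.04%. The log2 fold change of Col1a1, at -0.68 ± 0.34, did not pass the test in edgeR (adjusted p 0.287). The 95% intervals of Col6a1, Col6a2 and Col6a3 lay wholly below those of Col5a1, Col5a2 and Col3a1, a difference between genes that was not tested itself.

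**Figure D3:**
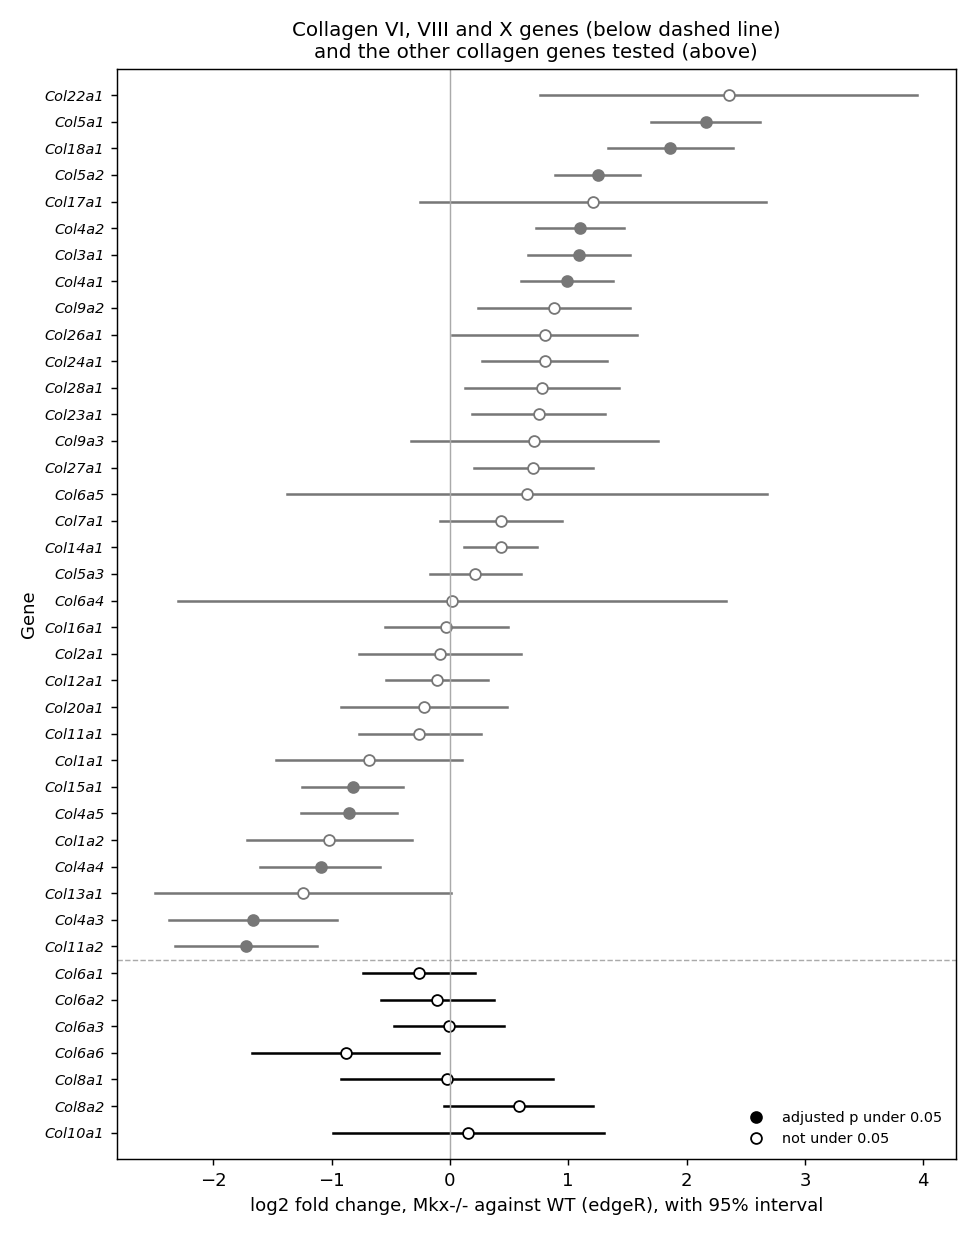
Log2 fold changes, Mkx-/- against WT, with 95% intervals from edgeR for the 7 members (black, below the dashed line) and the 33 other collagen genes tested (grey), filled where the adjusted p was under 0.05. No member is filled, and of the other collagen genes 6 are filled to the right of 0 and 5 to the left.

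The receptors and matrix partners of collagen VI included genes that passed the test in both directions. Of 20 genes on that list 19 were tested, with a median log2 fold change of 0.06. At an edgeR adjusted p under 0.05, 5 were higher in Mkx-/- and 1 lower, beside 3.18% and 2.26% of all genes tested, and 13 did not pass the test. Bgn, which codes for biglycan, a small proteoglycan that binds collagen VI filaments, was at 964, 1268 and 1009 CPM in the WT libraries and 5175, 4358 and 4777 CPM in Mkx-/-, a log2 fold change of 2.14 ± 0.18 with an edgeR adjusted p of 0.00115. Fn1, fibronectin, rose by 1.53 ± 0.15 and Matn3, a matrilin that bridges collagen VI to other matrix, by 1.45 ± 0.15, with adjusted p-values of 0.00173 and 0.00181. The groups of these genes did not overlap, which was also found for 28.2% of all genes tested.

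Among the cell surface receptors, Itga2 and Itga11, integrin subunits that bind collagens, moved in opposite directions. Itga2 fell from 37.9 ± 2.65 to 9.28 ± 3.25 CPM (log2 fold change -2.04 ± 0.22, edgeR adjusted p 0.00271), and Itga11 rose from 24.4 ± 1.38 to 47.1 ± 7.54 CPM (0.95 ± 0.15, adjusted p 0.0115). Lum, lumican, rose by 0.73 ± 0.14 with an adjusted p of 0.0248. Matn1, a cartilage matrilin, was at 0 counts in all 6 libraries. The collagen VI receptors Antxr1 and Cspg4 and the proteoglycan gene Dcn were among the 13 that did not pass the test, with log2 fold changes of -0.13, -0.14 and -0.03.

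Ratios between genes of one library do not depend on the scaling between libraries, and they were compared for 8 pairs with two-sided exact permutation tests of the log2 ratios. With 3 libraries against 3 the smallest p such a test can give is 0.1, so none of the pairs could pass a threshold of 0.05. Of the 8 ratios, 5 had groups that did not overlap.

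The ratio of Col6a2 to Col6a1 counts was 0.699, 0.725 and 0.729 in WT and 0.81, 0.787 and 0.804 in Mkx-/-. Every knockout library lay above every WT library, with a difference of the group means of 0.16 on the log2 scale, or 1.11-fold, against SDs of 0.034 and 0.022 within the groups. The exact permutation p was 0.1 (0.16 after Benjamini-Hochberg adjustment over the 8 ratios). Over all genes tested, the count relative to Col6a1 had groups that did not overlap for 23.7%, so the separation itself was common. The ratio of Col6a3 to Col6a1 was 0.505, 0.455 and 0.463 in WT and 0.592, 0.51 and 0.576 in Mkx-/-, a difference of 0.24 on the log2 scale without overlap and with the same exact p of 0.1. The lowest knockout library and the highest WT library were nearly level in this ratio.

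The ratio of Col6a3 to Col6a2 overlapped between the groups, at 0.627 to 0.723 in WT and 0.648 to 0.731 in Mkx-/-, while 16.3% of all genes did not overlap relative to Col6a2. Its exact permutation p was 0.3. The Col6a6 count was 0.707, 0.872 and 1.14 per 1000 Col6a3 counts in WT and 0.339, 0.507 and 0.692 in Mkx-/-, without overlap and with an exact p of 0.1, where 14.6% of all genes did not overlap relative to Col6a3. The ratio of Col8a2 to Col8a1 was 0.561, 0.389 and 0.396 in WT and 0.655, 0.777 and 0.534 in Mkx-/-. The highest WT library lay above the lowest knockout library, the exact permutation p was 0.2, and 4.9% of all genes did not overlap relative to Col8a1.

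**Figure D4:**
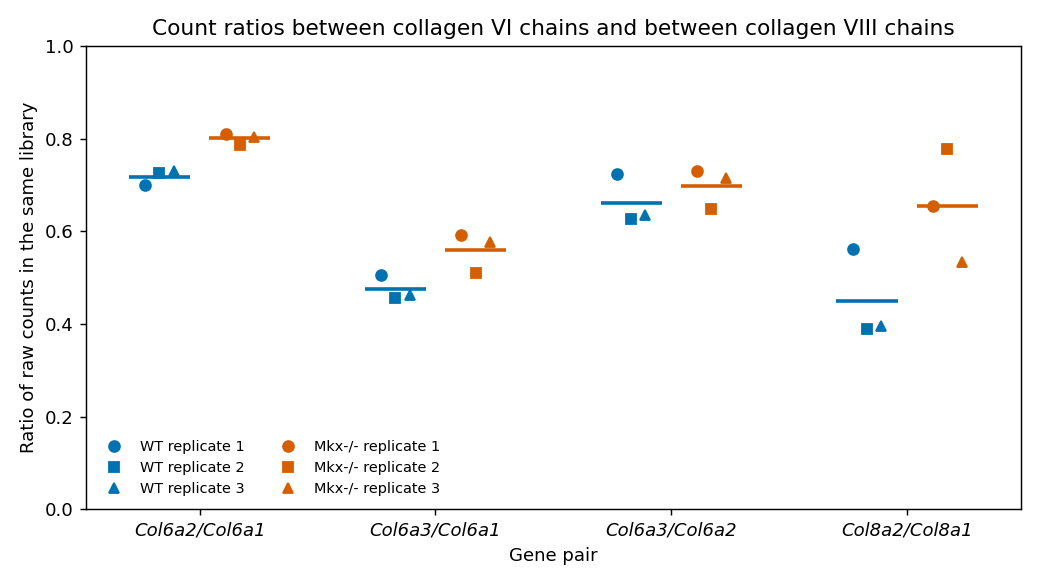
Ratios of raw counts within a library for 3 pairs of collagen VI chains and for the collagen VIII pair, with WT (blue) and Mkx-/- (orange) libraries as points and a bar at each group mean. The Col6a2 to Col6a1 ratio is 0.699 to 0.729 in WT and 0.787 to 0.81 in Mkx-/-, and the Col6a3 to Col6a1 ratio also does not overlap, while the other pairs do.

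Relative to collagen I, the main fibril collagen of tendon, collagen VI transcripts were higher in the knockout libraries. There were 43.9, 35.1 and 37.2 Col6a1 counts per 1000 Col1a1 counts in WT and 45.8, 53.6 and 55.1 in Mkx-/-. For Col6a3 the values were 22.2, 16.0 and 17.2 in WT and 27.1, 27.3 and 31.7 in Mkx-/-. Neither ratio overlapped between the groups, with log2 differences of 0.41 and 0.65 and exact permutation p-values of 0.1, but 32.3% of all genes did not overlap relative to Col1a1. Col1a1 itself averaged 185335 ± 48981 CPM in the WT libraries and 115592 ± 29209 CPM in the knockout libraries.

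The abundant members shared an order of libraries within each group, as did other genes of the table. WT replicate 1 was the lowest WT library for 5 of 5 of Col6a1, Col6a2, Col6a3, Col8a1 and Col8a2, and Mkx-/- replicate 2 the lowest and replicate 1 the highest knockout library for 5 of 5. The same order was found for 10.1% of all genes tested and for 9 of the 33 other collagen genes tested, Col1a1 and Col2a1 among them. Against the mean over the 6 libraries, Col8a1 was at -1.04 and Col8a2 at -0.98 on the log2 scale in WT replicate 1, and Col6a1 at -0.15. In Mkx-/- replicate 1 the 5 genes were at 0.10 to 0.64. These genes share libraries, depth and scaling. The skeletal muscle list summed to 3614 CPM in Mkx-/- replicate 1 and 517 CPM in WT replicate 1, each the highest of its group, while the members were highest in the former and lowest in the latter. The part of muscle RNA in the order was not tested.

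**Figure D5:**
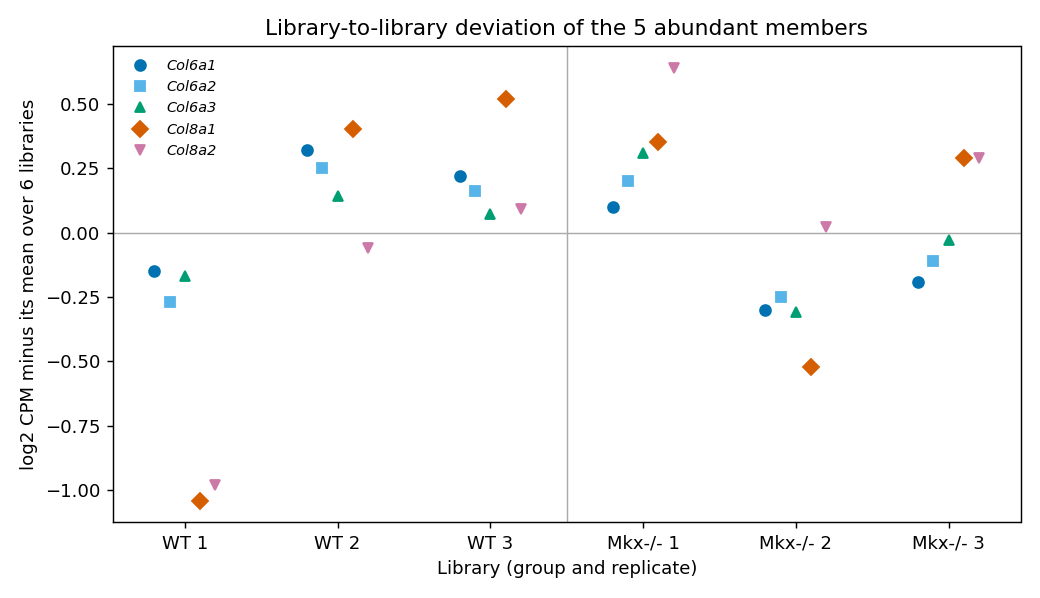
Log2 CPM of the 5 abundant members minus the mean of each gene over the 6 libraries, by library, with 1 symbol per gene. WT replicate 1 lies below 0 for all 5 genes, down to -1.04 for Col8a1, and Mkx-/- replicate 1 lies above 0 for all 5.

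The genes with the most similar pattern were found by the root mean square difference of centred log2 CPM over the 6 libraries, among 8074 genes that averaged 10 CPM or more, for the average of Col6a1, Col6a2 and Col6a3. The nearest were Fbxl8 (0.042), Trp53i13 (0.056), Sil1 (0.057), Tnmd (0.057) and Jph4 (0.06). Tnmd codes for tenomodulin, a membrane protein that marks differentiated tenocytes, and it averaged 1083 ± 148 CPM for WT and 1065 ± 207 CPM in Mkx-/-. No other gene of the tenocyte list was among these 5. The log2 fold changes of the other tenocyte markers ran from -1.14 (Scx) to 1.26 (Thbs4), with Fmod at 0.11. A link of collagen VI to tenocytes was not tested. Srm, Cdr2 and Lrrc59 were nearest to Col8a1, at 0.064 to 0.092, and Tpm1, Pdia5 and Chsy1 were nearest to Col8a2, at 0.053 to 0.115. Ccnd2, Fcgr2b and Cnn2 were nearest to Col6a6, at 0.098 to 0.14. For Col10a1 the nearest genes, Gm11353, Chmp1b and Hdac11, were at 0.273 to 0.306 and thus less like it than the nearest genes of any other member.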

How the data were processed

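The authors extracted total RNA from minced tail tendons with TRIzol, prepared libraries with an Ion Total RNA-Seq kit, sequenced them on an Ion Proton instrument and aligned the reads to mm9 with MapSplice. The deposited table held raw counts per gene symbol for the 3 WT and 3 Mkx-/- libraries. The counting program, its annotation and its strand setting are not given in the sources used here. Of the 44788 symbols, 19011 had no count in any library. Genes were filtered with edgeR's filterByExpr and tested on genotype alone by the quasi-likelihood test of edgeR 4.0.16 in R 4.3.3 with TMM scaling, a prior count of 0.125 and Benjamini-Hochberg adjustment over the 14550 genes tested. A gene passed the test at an adjusted p under 0.05, and "rose" and "fell" are used of such genes only. The procedure was tested on simulated data first. Count ratios were compared with exact permutation tests in scipy 1.17.1. Levels per kb used the longest coding transcript of the GENCODE annotation for mm9, and promoter windows were read from mm9 before the annotated gene start. The members and gene lists were chosen with earlier results of these data known. Genes named beside the members were at most the 6 of a list with the smallest p, some that did not pass the test, genes overlapping a member, and the nearest genes by pattern, 5 for collagen VI and 3 for each other member. Col1a1, Col2a1, Col3a1 and Col5a1 were added as reference levels. Alternatives covered DESeq2 1.42.0, other scalings and filters, robust estimation, a replicate block, removal of muscle or of the dominant genes, and each library left out.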

Additional observations from a re-analysis of the deposited data

How the results depend on the processing

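Across 15 or 16 alternatives for each gene, Col6a1 (-0.41 to -0.00) and Col6a6 (-1.16 to -0.61) kept a negative log2 fold change and Col8a2 (0.32 to 0.85) a positive one, and no adjusted p of a member fell under 0.05 except for Col8a2 with library size alone. Scaling by library size alone moved the median of all genes to 0.25. There Col8a2 was at 0.85 (edgeR adjusted p 0.0472), 1 member instead of 0 passed the test, and Col6a2 (0.15), Col6a3 (0.24) and Col8a1 (0.26) changed sign, each at or near that median. Col6a3 and Col8a1 lay so near 0 that they changed sign elsewhere too. Col6a3 was at 0.00442 with a filter of 1 count in any library and between -0.20 and 0.13 with 1 library left out, and Col8a1 between -0.38 and 0.22. Without WT replicate 3, the library read as male, Col6a1 was at -0.238, Col6a2 at -0.0722 and Col6a3 at 0.00407. In that fit Col6a6 was at -0.665, Col8a1 at 0.217, Col8a2 at 0.765 and Col10a1 at 0.32. No member passed there, with edgeR adjusted p-values of 0.237 to 0.995, and the part of sex was not tested. Leaving out 1 library gave -0.60 to 0.44 for Col10a1, which turned negative without Mkx-/- replicate 2, and -0.70 to 0.46 for the log2 Col10a1 to Col2a1 ratio, which turned negative without WT replicate 2 or Mkx-/- replicate 2. The differences of the other 7 log2 ratios kept their sign in all 7 alternatives, and that of Col6a2 to Col6a1 ran from 0.14 to 0.17. No value could be given for Col10a1 with a minimum of 10 counts in every library, which it did not reach.

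The labels do not say whether replicate numbers pair the libraries. Same-numbered libraries correlated at 0.026, -0.21 and 0.297 in their deviations from the group means. With 3 libraries per group such deviations depend on each other, so these values cannot decide whether the libraries were paired. With a replicate block 264 genes were higher and 170 lower instead of 463 and 329, no member passed the test, and Col8a1 was at 0.0617. The counts of genes higher and lower were 787 and 588 with DESeq2, 1358 and 197 with library size alone, 970 and 594 with a filter of 1 count in any library, and 117 to 539 and 127 to 439 with 1 library left out, lowest without WT replicate 3. The cause of these shifts was not tested. Depth limits Col6a6 and Col10a1, with 8 to 49 counts per library, most.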
